A study of Mus musculus with 8 samples.

Results

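Potassium channels and the related HCN channels set how readily a hippocampal neuron fires, and their genes are described here in the hippocampus of aged mice with impaired or intact memory. The members were taken by symbol, as every gene named Kcn followed by letters and a number, plus the HCN genes, with symbols ending in os and 1 subunit gene not analysed here. No expression filter was set, and the rule itself used no measured value, although it was chosen with earlier results of these data known. This gave 91 of the 19505 genes named on the array, among them Hcn2, Hcn3 and Hcn4. The hippocampi were from 8 animals labelled B6.Cg-Tg(APPswe)E1-2Dbo/J, a line that carries an amyloid precursor protein transgene with the Swedish mutation, at 18 to 20 months of age and after the Morris water maze, a test of spatial memory. By the labels, 4 mice had impaired and 4 had intact memory, both groups carried the transgene, no mice without it were among the 8, and each mouse gave 1 array. The sex of the mice, the promoter that drives the transgene and the score that separated the groups are not stated in the labels. By its title, the study looked for expression differences that go with memory impairment.

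Potassium channels let potassium leave the cell and so hold or return the membrane to rest. The voltage-gated Kv subunits open on depolarization and shape the action potential, the calcium-activated subunits produce the afterhyperpolarization that follows a spike, the inward rectifiers (Kir) and the tandem-pore leak channels (K2P) set the resting potential, and auxiliary subunits tune their gating and transport. HCN channels open on hyperpolarization, pass both sodium and potassium with a net inward current near rest, and limit how dendritic inputs add up in pyramidal neurons. Kir channels also buffer potassium in astrocytes and move it across the epithelium of the choroid plexus.

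Expression is given as log2 of the RMA signal, a summary of each probe set, and a step of 1 is a doubling. The array holds 5222 probe sets for introns as a background, with a 75th percentile of 6.30 to 6.39 and a 95th percentile of 7.95 to 8.01 on the 8 arrays. Of the 91 channel genes, 33 (36.3%) lay above that 95th percentile on all 8 arrays, against 29.4% of all genes, and 17 (18.7%) lay below the 75th percentile on all 8, against 34.7%. The 17 were Kcna5, Kcna10, Kcnv2, Kcnq1, Kcnh4, Kcnh6, Kcnh8, Kcnn4, Kcnj1, Kcnj2, Kcnj15, Kcnk5, Kcnk16, Kcnk18, Kcne1, Kcne3 and Kcne4, whose signal therefore does not stand out from background. Hippocampal markers were present in every mouse: Neurod6, a transcription factor of pyramidal neurons, ranged from 10.40 to 11.17, and Prox1, which marks dentate granule cells, from 9.50 to 10.04. Markers of tissue that borders the hippocampus varied between mice. The mean of 11 choroid plexus markers ranged from 6.72 to 7.82 in the impaired and from 6.69 to 8.49 in the intact mice, lowest in impaired mouse 3 and intact mouse 3, and the mean of 12 thalamus markers from 8.69 to 9.33 and from 7.48 to 9.29, lowest in intact mouse 3. In whole tissue, fewer cells of a type and less RNA per cell cannot be told apart.

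None of the 91 channel genes passed the test for a difference between impaired and intact memory once it was adjusted over all genes. The gene nearest to a difference had an adjusted p of 0.963 (limma, Benjamini-Hochberg adjustment over all 19505 genes), and 0 members and 0% of all genes passed an adjusted p of 0.05. At an unadjusted p under 0.05, 3 members (3.3%) had higher values in the impaired mice, against 2.74% of all genes, and 1 (1.1%) had lower values, against 2.19%. The groups did not overlap for 3 members that were higher (3.3%, against 1.47% of all genes) and for 0 that were lower (against 1.29%). The first pair of shares lay near the background, and the share without overlap rests on 3 genes. Of the 91 members, 46 had higher and 45 lower mean values in the impaired mice. The median difference, impaired minus intact, was 0.0067, beside -0.0013 for all genes, and the median size of a difference was 0.077, beside 0.088. Leaving out intact mouse 3 raised the number of members with higher values at an unadjusted p under 0.05 from 3 to 5, where 2.71% of all genes then had such a p, and the number whose groups did not overlap from 3 to 7, where 5.8% of all genes then did not overlap.

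The intervals bounded the size of difference in array signal that could have gone unseen. For 76 of the 91 members (83.5%) the 95% interval of the difference lay within 0.5 of 0 on either side, which is a 1.41-fold change, and for 90 it lay within 1, a doubling. Over all genes, 77.3% had an interval within 0.5. The exception at a doubling was Kcnj13, with an interval from -1.80 to 0.58. An interval within 0.5 held for all 15 voltage-gated Kv1 to Kv4 alpha subunits, all 3 Kv7 subunits and all 8 EAG family subunits. It also held for all 11 genes grouped by symbol as calcium- and sodium-activated. Among the genes of these groups, Kcna5, Kcna10, Kcnq1, Kcnh4, Kcnh6, Kcnh8 and Kcnn4 lay at background, where an interval bounds the signal and not the RNA.

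**Figure D1:**
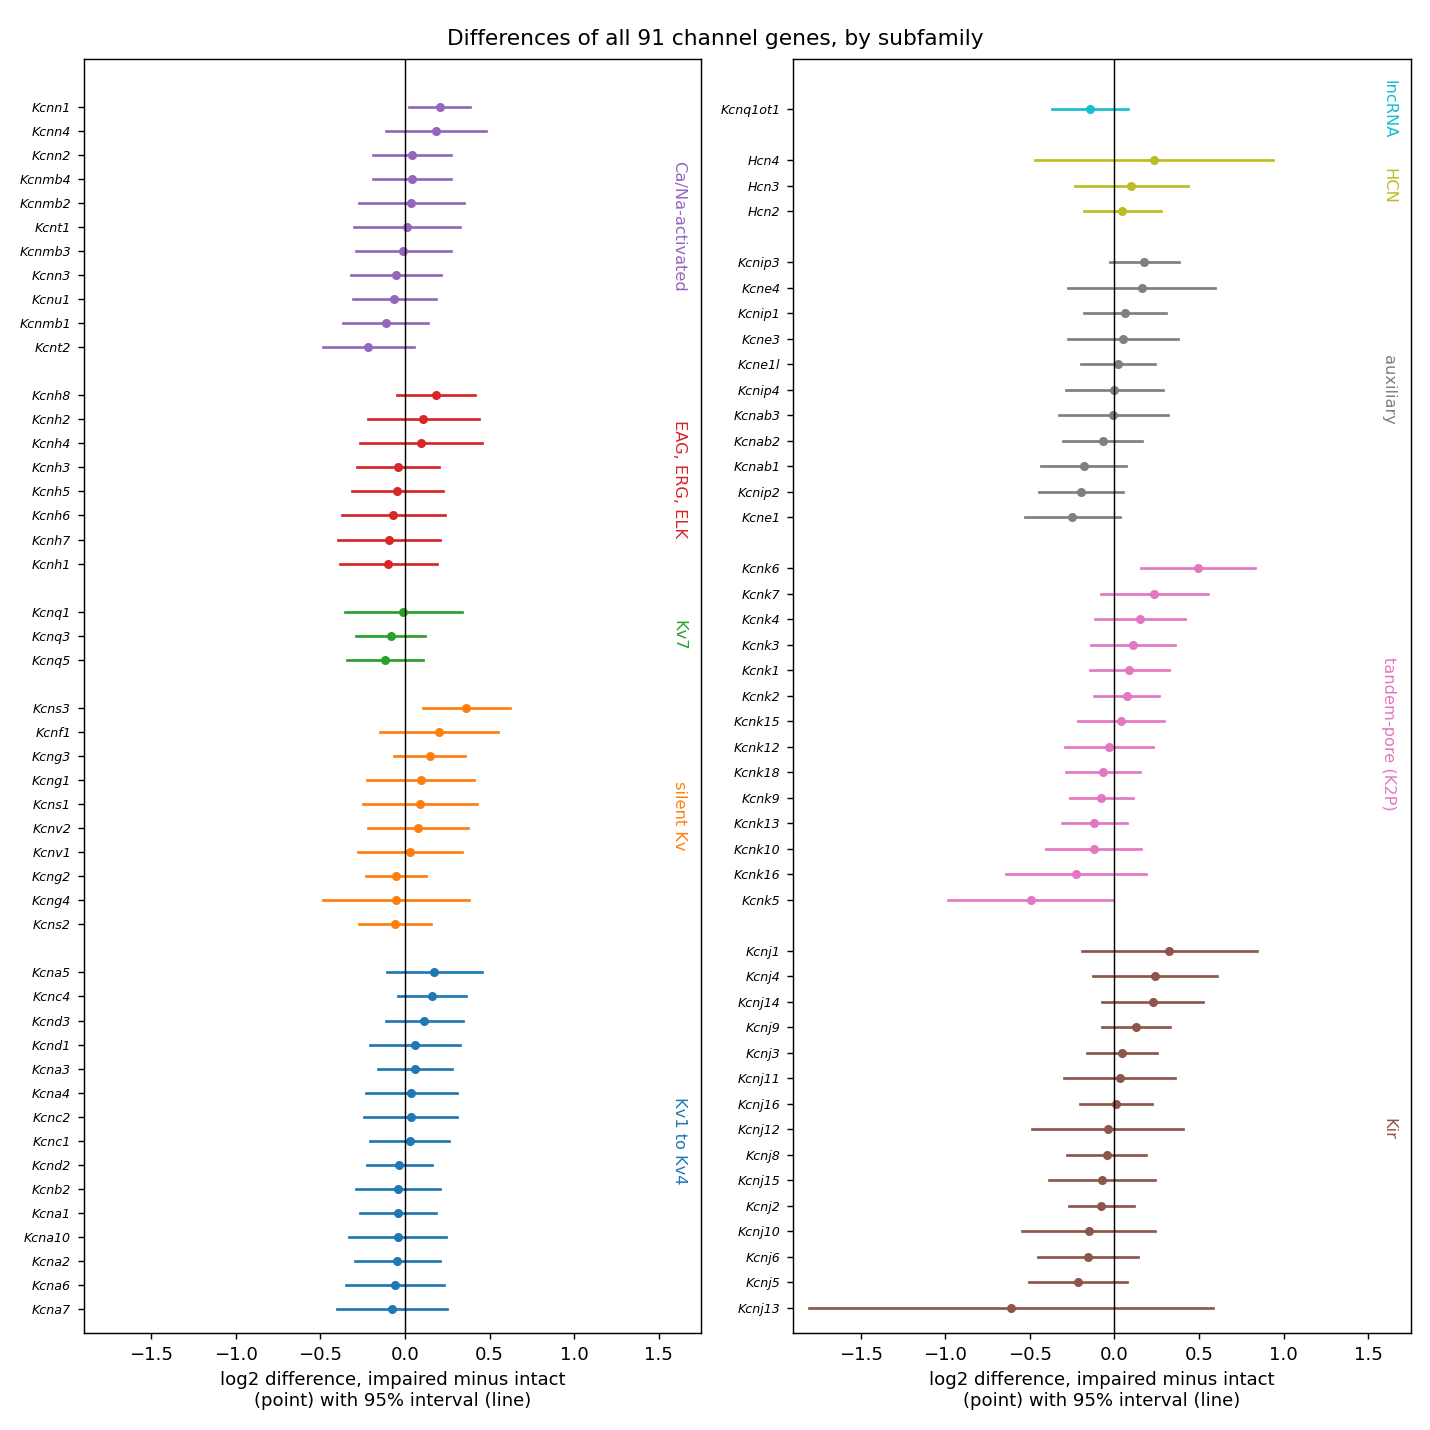
Log2 difference, impaired minus intact, of each of the 91 channel genes (points) with its 95% interval (lines), grouped and coloured by subfamily, 4 mice a group. Intervals of Kcns3, Kcnn1, Kcnk6 and Kcnk5 exclude 0 before adjustment, Kcnj13 has the widest interval, and no gene passed the adjusted threshold.

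The 5 members with an unadjusted p under 0.05 or with groups that did not overlap were Kcns3, Kcnk6, Kcnn1, Kcnip3 and Kcnk5. Kcns3 encodes Kv9.3, a silent subunit that forms no channel alone and alters the gating of Kv2 channels. It stood at 7.56, 7.43, 7.65 and 7.47 in impaired mice 1 to 4 and at 7.23, 7.31, 7.27 and 6.84 in intact mice 1 to 4. Every impaired mouse lay above every intact mouse, and intact mouse 4 lay well below the rest. The means were 7.53 ± 0.097 (SD, n = 4) and 7.16 ± 0.22 (SD, n = 4), a 1.29-fold higher value in the impaired group, with a log2 difference of 0.36 and a standard error of 0.12 (limma, adjusted p = 0.963). Leaving out intact mouse 4 gave a difference of 0.26. Kcns3 lay above the intron 75th percentile on all 8 arrays and above the 95th on 0.

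Kcnk6 encodes TWIK2, a tandem-pore leak channel subunit. Its values were 6.97, 6.75, 7.13 and 6.95 in the impaired mice and 6.62, 6.79, 6.10 and 6.33 in the intact mice. Intact mouse 2 lay above impaired mouse 2, so that the groups overlapped, and intact mouse 3 was lowest. The log2 difference of 0.49 (standard error 0.15) had the smallest unadjusted p of the members (limma, adjusted p = 0.963), at 1.41-fold. Leaving out both mice numbered 3, an alternative chosen once the data had been seen, gave a difference of 0.31, whose unadjusted p was no longer under 0.05. Kcnk6 had values above the intron 75th percentile on 6 of the 8 arrays and above the 95th on 0.

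Kcnn1 encodes SK1, a small-conductance channel opened by calcium after a spike. Its impaired values were 8.30, 8.17, 8.28 and 8.25 and its intact values 8.004, 8.12, 8.08 and 7.97. The groups did not overlap, although impaired mouse 2 lay just above intact mouse 2. The means of 8.25 ± 0.058 (SD, n = 4) and 8.05 ± 0.069 (SD, n = 4) gave a log2 difference of 0.20 (standard error 0.081, limma, adjusted p = 0.963), or 1.15-fold. With the choroid plexus markers as a covariate the difference was 0.19, and its unadjusted p was no longer under 0.05.

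Kcnip3 encodes KChIP3, a calcium-binding auxiliary subunit of Kv4 channels that is also known as the transcriptional repressor DREAM and as the presenilin partner calsenilin. It stood at 11.98, 11.93, 11.70 and 11.71 in the impaired mice and at 11.69, 11.63, 11.65 and 11.64 in the intact mice. Impaired mice 1 and 2 carried most of the difference, while impaired mice 3 and 4 lay just above intact mouse 1. The log2 difference was 0.18 (standard error 0.092, limma, adjusted p = 0.963).

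Kcnk5, the acid-sensitive leak channel TASK2, was the member with lower values and an unadjusted p under 0.05. Its values of 4.84, 4.67, 4.59 and 4.83 in the impaired and 5.16, 5.96, 4.74 and 5.05 in the intact mice all lay below the intron 75th percentile. Intact mouse 3 lay within the impaired values, and intact mouse 2 stood above all others. The log2 difference was -0.50 (standard error 0.22, limma, adjusted p = 0.963). Leaving out intact mouse 2 gave -0.25.

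**Figure D2:**
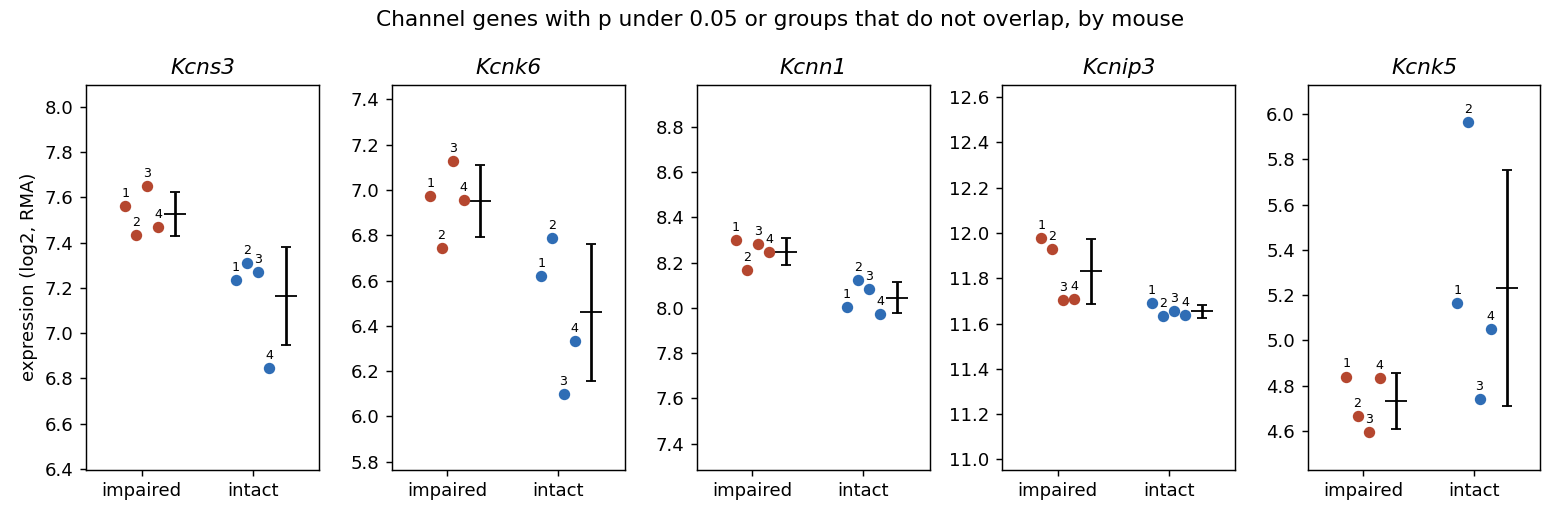
Log2 expression of Kcns3, Kcnk6, Kcnn1, Kcnip3 and Kcnk5 in each mouse (points, numbered by mouse), with the mean and SD of each group of 4 (bars); each panel spans the same log2 height on its own level. The impaired values lie above all intact values for Kcns3, Kcnn1 and Kcnip3, and overlap them for Kcnk6 and Kcnk5.

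The sequence upstream of the start site is shown for the 3 genes whose groups did not overlap, and for Kcnj13, which varied most between mice. Each is the 250 bases before the annotated start furthest upstream, from RefSeq on GRCm38.p6, written 5′ to 3′. Kcns3 lies at chr12:11150843-11151092, Kcnn1 at chr8:70863259-70863508, Kcnip3 at chr2:127522095-127522344 and Kcnj13 at chr1:87394730-87394979, all on the minus strand. Capitals mark a GC box (GGGCGG) or a TATA box (TATAAA), searched on both strands together with the cAMP response element (TGACGTCA).
Kcns3: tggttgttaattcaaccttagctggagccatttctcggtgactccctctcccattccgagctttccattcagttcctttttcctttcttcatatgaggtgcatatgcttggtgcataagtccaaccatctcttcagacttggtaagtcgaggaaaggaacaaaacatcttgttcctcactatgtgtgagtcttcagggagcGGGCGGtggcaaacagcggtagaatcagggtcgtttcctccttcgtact
Kcnn1: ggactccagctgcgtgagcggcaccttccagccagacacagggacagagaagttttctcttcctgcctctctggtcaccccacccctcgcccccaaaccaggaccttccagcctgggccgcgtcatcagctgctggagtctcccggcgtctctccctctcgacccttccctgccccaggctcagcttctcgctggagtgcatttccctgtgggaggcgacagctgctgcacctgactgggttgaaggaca
Kcnip3: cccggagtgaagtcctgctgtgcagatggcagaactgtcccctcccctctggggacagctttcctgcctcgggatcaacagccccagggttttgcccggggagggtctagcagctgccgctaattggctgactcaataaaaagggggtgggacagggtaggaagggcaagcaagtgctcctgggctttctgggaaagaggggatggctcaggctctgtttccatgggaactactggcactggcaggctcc
Kcnj13: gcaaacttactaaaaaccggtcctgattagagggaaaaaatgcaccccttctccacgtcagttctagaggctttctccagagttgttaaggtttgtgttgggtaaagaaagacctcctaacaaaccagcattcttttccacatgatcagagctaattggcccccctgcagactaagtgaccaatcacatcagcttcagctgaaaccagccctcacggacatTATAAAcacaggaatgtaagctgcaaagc
The Kcns3 window held 1 GC box, the Kcnj13 window 1 TATA box, and the Kcnn1 and Kcnip3 windows none of the 3 motifs. Of the 91 members, 69 had a promoter in the table. A GC box stood in 34 of these (49.3%), against 33% of all 27025 promoters, a TATA box in 2 (2.9%, against 13%) and the cAMP response element in 0 (against 1.6%). The median share of G and C was 58.8% in the members' windows and 52% in all. A match is a run of letters and not a measured binding site.

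Of the 15 Kv alpha subunits, 8 had higher and 7 lower mean values in the impaired mice, and 0 passed the test. Their differences ran from -0.075 for Kcna7 to 0.17 for Kcna5, with a median of 0.027. The axonal delayed rectifier subunits Kcna1 and Kcna2 differed by -0.042 (standard error 0.100) and -0.045 (standard error 0.11). Kcna1 was lowest in impaired mouse 1, at 10.21, then intact mouse 3, at 10.28, and lay at 10.41 to 10.53 elsewhere, so that its low values fell in both groups. Kcna4, an A-type subunit of axons, differed by 0.038 (standard error 0.12). Kcnd2, which carries the A-type current of pyramidal cell dendrites, varied least among the 15, from 9.54 to 9.78 over the 8 mice, and differed by -0.033, with an interval from -0.22 to 0.16. Kcnd3, its relative, differed by 0.11 (standard error 0.10) and was highest in impaired mouse 1, at 9.68. Kcnc1, which lets interneurons fire fast, stood at 10.25 ± 0.075 (SD, n = 4) and 10.23 ± 0.19 (SD, n = 4). Kcna3, Kcna6, Kcna10, Kcnb2, Kcnc2, Kcnc4 and Kcnd1 made up the rest, and Kcnc4 had the largest difference of these, 0.16 (standard error 0.090).

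The silent Kv modifiers, which assemble with Kv2 subunits, had higher mean values in 7 of 10 members, with a median difference of 0.083, and 0 passed the adjusted test. After Kcns3, Kcnf1 differed by 0.20 (standard error 0.16), led by a value of 8.31 in impaired mouse 2 against 7.41 to 7.89 in the other mice. Kcng3 differed by 0.15, and Kcng1, Kcns1, Kcnv1 and Kcnv2 by 0.030 to 0.092. Kcng2, Kcng4 and Kcns2 had lower means, by -0.053 to -0.057.

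The Kv7 subunits form the M current, a slow brake on firing that acetylcholine shuts off. All 3 had lower mean values in the impaired mice and none passed the test. Kcnq5 stood at 9.08, 9.23, 9.004 and 9.305 in the impaired mice and at 9.21, 9.25, 9.44 and 9.20 in the intact mice. Its groups overlapped, and the difference was -0.12 (standard error 0.100, interval -0.34 to 0.10). Without both mice numbered 3, an alternative chosen once the data had been seen, the difference of Kcnq5 was -0.013. Kcnq3 differed by -0.084 (standard error 0.092) and was lowest in impaired mouse 1, at 9.65. Without that mouse the difference of Kcnq3 was -0.028. Kcnq1, a channel subunit of heart and epithelia, differed by -0.011, at background. Kcnq1ot1, a long non-coding RNA transcribed from within the Kcnq1 locus, was also taken in by the symbol rule and differed by -0.14 (standard error 0.100).

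Among the EAG, ERG and ELK subunits, which include channels that repolarize slowly, 3 of 8 had higher and 5 lower means, and 0 passed the test. Differences ran from -0.098 for Kcnh1 to 0.19 for Kcnh8, and Kcnh8 stood at 3.25 to 3.79, at background. Kcnh2, the ERG1 subunit, was 8.61 to 8.72 in the 4 impaired mice but spanned 8.22 to 8.88 in the intact mice. Kcnh3, Kcnh4, Kcnh5, Kcnh6 and Kcnh7 differed by -0.094 to 0.096.

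The genes grouped by symbol as calcium- and sodium-activated had higher means in 6 of 11 members, with a median of 0.010. The grouping also took in Kcnu1, whose channel is opened by neither ion. Beside Kcnn1, the other SK subunits Kcnn2 and Kcnn3 differed by 0.042 (standard error 0.10) and -0.055 (standard error 0.12). Kcnn2 was 9.88 to 10.04 in the impaired mice and 9.71 to 10.13 in the intact mice, which enclosed them. Kcnmb4, the neuronal beta subunit of the large-conductance BK channel, differed by 0.040 (standard error 0.10). Kcnt2, a sodium-activated channel, had the most negative difference of the group, -0.22 (standard error 0.12), and intact mouse 3 was highest at 8.79. Kcnmb1, Kcnmb2, Kcnmb3, Kcnn4, Kcnt1 and Kcnu1 differed by -0.12 to 0.18.

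The inward rectifiers had a median SD over the 8 mice of 0.22, against 0.18 for all members and 0.17 for all genes. Of 15, 7 had higher and 8 lower means, and none passed the test. Kcnj3, Kcnj6 and Kcnj9 encode the GIRK subunits that G proteins open to inhibit neurons. Kcnj3 stood at 10.10 ± 0.042 (SD, n = 4) and 10.06 ± 0.14 (SD, n = 4). Kcnj6 differed by -0.16 (standard error 0.13), with its highest value, 10.19, in intact mouse 3, and Kcnj9 by 0.13 (standard error 0.091). Kcnj10, the Kir4.1 subunit with which astrocytes take up potassium, was 10.41, 10.72, 10.04 and 10.26 in the impaired mice and 10.45, 10.82, 10.64 and 10.12 in the intact mice. Low and high values of Kcnj10 stood in both groups, and the difference was -0.15 (standard error 0.18). Its partner Kcnj16 differed by 0.0067 (standard error 0.096). The mean of 10 astrocyte markers was 9.82 to 9.999 in the impaired and 9.83 to 9.98 in the intact mice. The subunits of ATP-sensitive channels, Kcnj8 of mural cells and Kcnj11 of neurons, differed by -0.046 (standard error 0.11) and 0.030 (standard error 0.15). Kcnj1, a renal channel, was 5.43 in impaired mouse 1 and at most 4.61 in the others, all at background, and without that mouse its difference of 0.32 became 0.074. Kcnj12 ranged from 6.90 to 7.83 within the impaired group and differed by -0.040. Kcnj2, Kcnj4, Kcnj5, Kcnj14 and Kcnj15 differed by -0.22 to 0.24.

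Kcnj13 had the widest spread of the 91 genes, with an SD of 0.96 over the 8 mice. It encodes Kir7.1, a channel of the apical membrane of choroid plexus epithelium. It stood at 9.74, 8.81, 7.82 and 9.71 in the impaired mice and at 10.48, 10.15, 8.15 and 9.76 in the intact mice. The lowest values were those of impaired mouse 3 and intact mouse 3, the mice in which the plexus markers were lowest, and the highest was that of intact mouse 1, in which they were highest. Ttr, the thyroid hormone carrier of the plexus, had low values in the same mice, 9.79 and 10.56, beside 12.30 to 13.69 elsewhere. The difference of Kcnj13 was -0.61 (standard error 0.54, limma, adjusted p = 0.964). With the mean deviation of the 11 plexus markers as a covariate it was 0.044 (standard error 0.14). Without both mice numbered 3, an alternative chosen once the data had been seen, it was -0.71 (limma, adjusted p = 0.978). The groups of Kcnj13 then did not overlap, as for 9.57% of all genes in that setting. All 11 plexus markers had lower mean values in the impaired group, with a median difference of -0.52, and 0 passed the adjusted test.

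The tandem-pore channels had higher means in 7 and lower means in 7 of 14 members, among them Kcnk6 and Kcnk5 at either end. Kcnk1, or TWIK1, was 10.50 in impaired mouse 1 and 10.07 to 10.38 in the others, with a difference of 0.087 (standard error 0.10). Kcnk2, the stretch-sensitive channel TREK1, was 8.004 ± 0.092 (SD, n = 4) and 7.93 ± 0.070 (SD, n = 4). Kcnk9, the acid-sensitive TASK3, ranged only from 8.79 to 9.02 over the 8 mice. Kcnk7 differed by 0.24 (standard error 0.14) and Kcnk16, at background with 3.43 to 4.37, by -0.23 (standard error 0.19). Kcnk3, Kcnk4, Kcnk10, Kcnk12, Kcnk13, Kcnk15 and Kcnk18 differed by -0.12 to 0.15.

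The auxiliary subunits had higher means in 5 of 11 members, with a median of -0.0010, and none passed the test. KChIP proteins bind Kv4 channels and bring them to the membrane. Kcnip2 stood at 10.10, 10.20, 10.13 and 10.41 in the impaired mice and at 10.53, 10.39, 10.54 and 10.18 in the intact mice. Impaired mouse 4 lay among the intact values and intact mouse 4 among the impaired values, and the difference was -0.20 (standard error 0.11). Kcnab1, a beta subunit of Kv1 channels, was 9.95, 10.08, 10.10 and 10.26 in the impaired and 10.48, 10.28, 10.32 and 10.03 in the intact mice, and intact mouse 4 again lay among the impaired values. The difference of Kcnab1 was -0.18 (standard error 0.11). Without intact mouse 4 it was -0.26 for Kcnab1 and -0.27 for Kcnip2. Kcnab2 differed by -0.071 (standard error 0.10), Kcnip1 by 0.062 (standard error 0.11) and Kcnip4 by -0.0010 (standard error 0.13). Kcne4 ranged from 3.65 to 4.46 and Kcne1, at 4.36 to 5.04, differed by -0.25 (standard error 0.13), both at background. Kcnab3, Kcne1l and Kcne3 differed by -0.0071 to 0.051.

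The HCN channels had higher means in all 3 members, as did 9684 of the 19505 genes, and none passed the test. Hcn2, a subunit whose opening cyclic AMP promotes, was 9.11, 9.44, 9.25 and 9.34 in the impaired mice and 9.12, 9.41, 9.22 and 9.21 in the intact mice. The groups of Hcn2 nearly coincided, with a difference of 0.046 and an interval from -0.18 to 0.27. Without impaired mouse 2 the difference of Hcn2 was -0.0063. Hcn3 differed by 0.099 (standard error 0.15) and exceeded the intron 75th percentile on 1 array. Without intact mouse 1 the difference of Hcn3 was -0.0013. Hcn4, the slow pacemaker subunit that is strong in thalamic neurons, was 6.90, 7.47, 7.53 and 6.97 in the impaired mice and 6.84, 7.63, 6.02 and 7.44 in the intact mice. Intact mouse 3 lay 0.82 below the next mouse, and the values of the other 7 mice overlapped between the groups. Tcf7l2, a transcription factor of thalamic neurons, was 9.66 in that mouse and 11.10 to 12.30 in the others. Hcn4 exceeded the intron 75th percentile on 7 of the 8 arrays and the 95th on 0. The difference of Hcn4 was 0.23 (standard error 0.32). With the 12 thalamus markers as a covariate it was -0.078 (standard error 0.092), and without intact mouse 3 and impaired mouse 3 it was -0.19 (standard error 0.23). Of the thalamus markers, 11 of 12 had higher means in the impaired group, with a median difference of 0.35, and 0 passed the adjusted test.

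**Figure D3:**
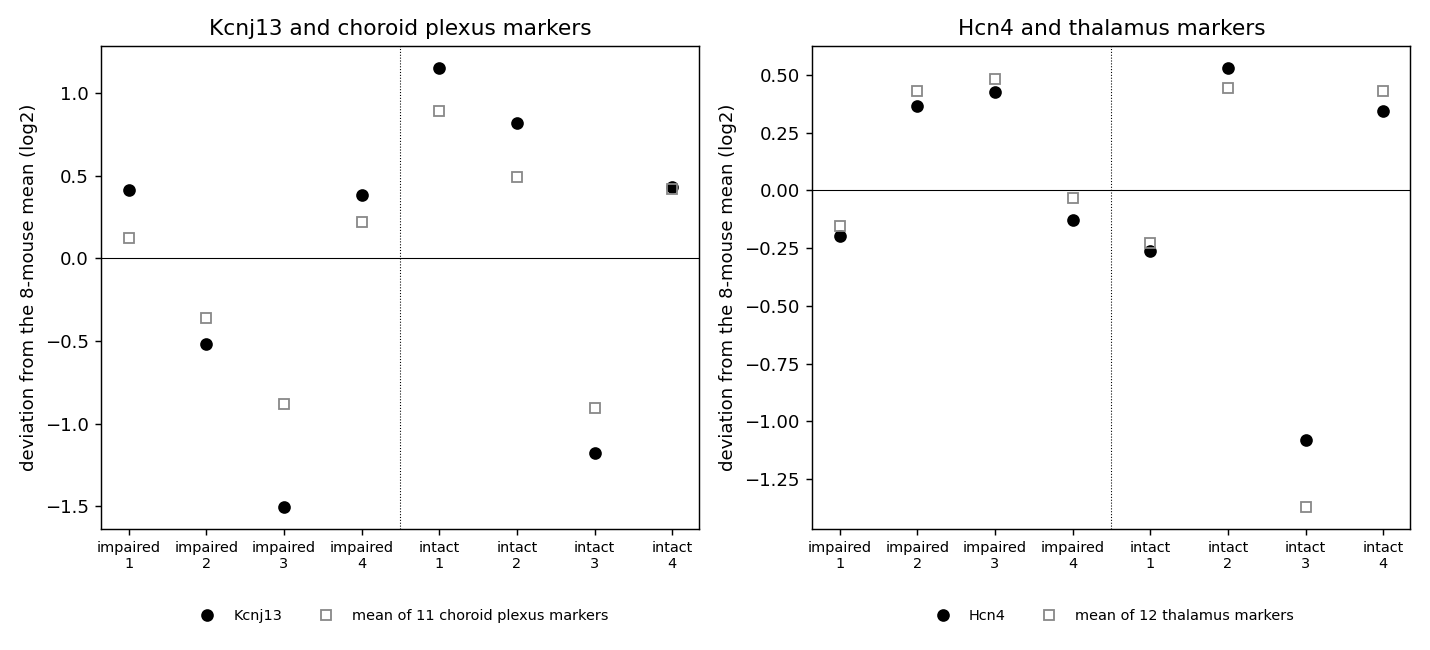
Deviation of Kcnj13 and of Hcn4 in each mouse from its own mean over the 8 mice (filled circles, log2), beside that of the mean of 11 choroid plexus markers and of 12 thalamus markers (open squares). Kcnj13 is lowest in impaired mouse 3 and intact mouse 3, and Hcn4 in intact mouse 3, as the markers are.

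Intact mouse 3 had the highest value of 18 members (19.8%, against 13.6% of all genes) and the lowest of 15 (16.5%, against 13.3%). The members highest there included Kcnt2, Kcnh1, Kcnj6, Kcnv1, Kcnb2 and Kcnq5, by 0.14 to 0.29 over the next mouse. Those lowest there included Hcn4, Kcnk3, Kcng4, Kcnk6, Kcnc1 and Kcnc2, by 0.13 to 0.82 under the next mouse. The mean of 11 pyramidal neuron markers was also highest in that mouse, 8.99 against 8.57 to 8.83 in the others. The part of tissue composition in these values was not tested beyond the covariates given above. Intact mouse 2 likewise had the highest value of 18 members, against 14.7% of all genes. The median deviation of the 91 genes was -0.037 to 0.038 in the single mice.

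**Figure D4:**
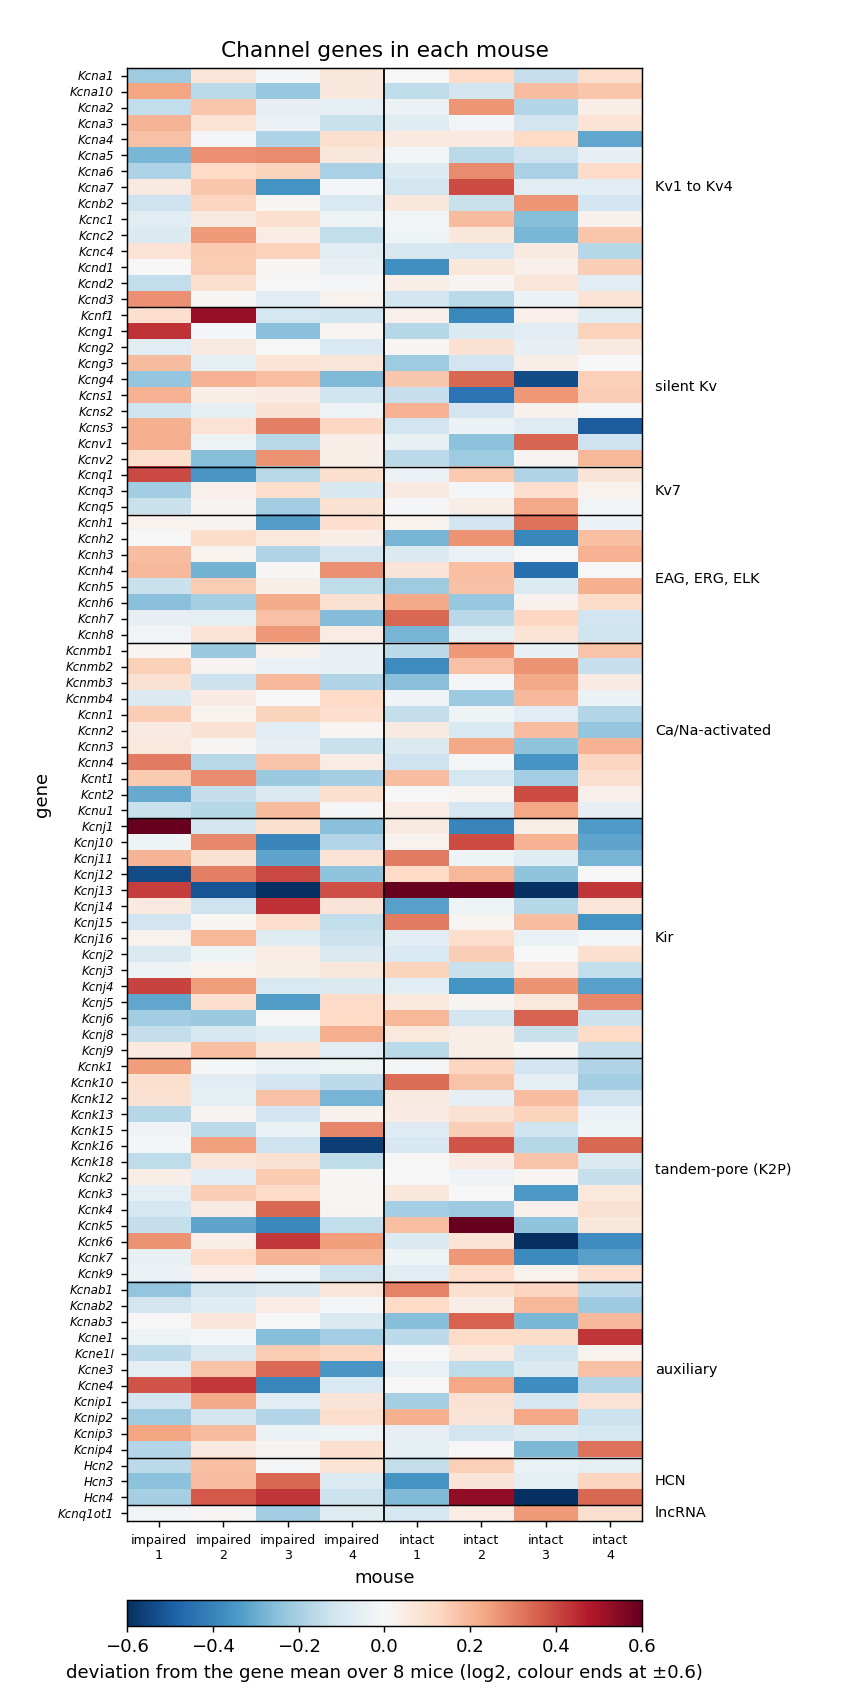
Deviation of each of the 91 channel genes (rows, by subfamily) from its mean over the 8 mice, in each mouse (columns, impaired left and intact right of the line), on the log2 scale with colours that end at 0.6 on either side. The colour ends are reached by Kcnj13 in several mice, by Hcn4 and Kcnk6 in intact mouse 3 (low), by Kcnj1 in impaired mouse 1 (high) and by Kcnk5 in intact mouse 2 (high).

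Some members lie next to each other on the chromosome, in 10 neighbouring pairs by the order of protein-coding genes. In 6 of the 10 pairs the differences had opposite signs, as for Kcnj9 and Kcnj10 at 0.13 and -0.15 and Kcna5 and Kcna1 at 0.17 and -0.042. Kcnk5 and its neighbour Kcnk16 both had lower means, by -0.50 and -0.23, with both genes at background.

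Of 22 partner proteins of these channels, 21 were measured, and 0 passed the adjusted test, as for 0% of all genes. Among them 8 had higher and 13 lower means in the impaired mice, with a median difference of -0.061. Lrrc38, an auxiliary gamma subunit of BK channels, was the 1 partner with an unadjusted p under 0.05. Of all genes, 2.74% had such a p with higher values in the impaired mice. Lrrc38 stood at 5.95, 5.72, 5.93 and 5.91 in the impaired mice and 5.62, 5.71, 5.22 and 5.50 in the intact mice. The groups just failed to overlap, as for 1.47% of all genes with higher values in the impaired mice. The level of Lrrc38 lay below the intron 75th percentile on all 8 arrays, and the difference was 0.36 (standard error 0.12, limma, adjusted p = 0.963). Dpp6 and Dpp10, which bind Kv4 channels beside the KChIPs, differed by 0.0014 (standard error 0.083) and 0.039 (standard error 0.17). Pex5l, or TRIP8b, which carries HCN channels to dendrites, was 9.58 ± 0.060 (SD, n = 4) in the impaired and 9.70 ± 0.12 (SD, n = 4) in the intact mice. Amigo1, a partner of Kv2 channels, differed by -0.038 (standard error 0.078).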

How the data were processed

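Hippocampal RNA of 8 mice, 4 a group, was hybridised to 1 Affymetrix mouse array each, from 1 ng of total RNA amplified with the WT Pico kit, per the labels' protocols. The deposited values are log2 expression, which the authors made with RMA per the submitters' processing notes; neither its version nor a genome build is named in those notes. RMA as usually run makes the arrays' distributions alike and compresses differences of dim genes. Gene symbols came from GEO's platform annotation: of 22206 target probe sets, 19572 had 1 symbol, 0 several and 2634 none, giving 19505 genes, each by its brightest probe set. All 91 members had 1 probe set and matched a RefSeq gene. Some channel genes are not reported here.

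Impaired and intact mice were compared by two-sided moderated tests (limma 3.58.1, R 4.3.3, lmFit and eBayes) on all 19505 genes with no filter, Benjamini-Hochberg adjustment over all of them and a threshold of 0.05. A filter that left out the 25% dimmest genes (82 of 91 members kept) was an alternative, with others given in the closing section. The p-values weigh each difference against the spread between mice, partly pooled over genes, and the number of arrays limits their precision. Members, subfamilies, partners and marker lists were chosen with earlier results of these data known. Named with values were members with an unadjusted p under 0.05 or groups that do not overlap, the 8 with the largest SD and a fixed list of well-known channels; other members given a value of their own or as the end of a range were picked after their values were seen. When 200 of the 19505 genes were changed in simulated data of this comparison, 36.2% of changes of 0.5, 85% of changes of 1 and 99.2% of changes of 2 were recovered. The sizes were mixed at random among the 200 genes, so the larger changes eased the adjusted threshold for the smaller ones. The noise was drawn separately for each gene, without the variation that plexus or thalamus markers share between mice. These shares therefore do not give the power of the real comparison.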

Additional observations from a re-analysis of the deposited data

Results flagged for a closer look

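In 3 of 78 groups of 4 mice, over the named channel genes, 1 mouse stood far from its group: its gap to the nearest mouse exceeded Dixon's 95% limit, which chance passes in about 1 of 20 groups (3.9 of 78). Kcns3 was 6.84 in intact mouse 4, against 7.23 to 7.31 in the other intact mice. Kcna4 was 8.25 in the same mouse, against 8.61 to 8.67. Kcnk1 was 10.50 in impaired mouse 1, against 10.21 to 10.24 in the other impaired mice.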

How the results depend on the processing

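In all 18 alternative settings 0 channel genes and 0 partner genes passed an adjusted p of 0.05, and the smallest adjusted p of a member was 0.673, without impaired mouse 4. The median difference of the members moved by less than its spread between mice, 0.029. Members with higher values at an unadjusted p under 0.05 numbered 2 to 5 when single mice were left out (2.22% to 3.7% of all genes), with 5 without intact mouse 3 (2.71%). Members with lower values, 1 in the fit as reported, numbered 0 with the filter on dim genes, 2 with an intensity trend and robust prior, 2 after quantile normalization, 2 with the replicate block, 2 without both mice numbered 3 (added after seeing the data), where 2.02% to 2.52% of all genes did so, and 0 to 3 when single mice were left out (1.71% to 3.09%). Members whose groups did not overlap numbered 3 to 7 when single mice were left out (4.59% to 7.25% of all genes), and 8 without both mice numbered 3 (9.57%). The labels do not say whether the mouse numbers pair the samples. Deviations of same-numbered mice from their group means correlated at -0.093 to 0.022, which cannot settle it with 4 mice a group. With the replicate block, 0 members passed the adjusted threshold. The unadjusted p (limma) was then 0.0712 for Kcnn1 and 0.0192 for Kcnj13, whose standard error was 0.20 in that fit. Kcns3 kept an unadjusted p under 0.05 in 19 of 19 settings, the reported one included, Kcnk6 in 18 of 19, Kcnn1 in 11 of 19 and Kcnk5 in 11 of 18, with adjusted p of 0.673 to 1. Of the 39 named members, 18 changed sign in at least 1 setting, none of these with an unadjusted p under 0.05 in the reported fit.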
